A study of Mus musculus with 48 samples.

Results

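The 8 genes described here encode transcription factors, and a partner of one family of them, that are known for their part in osteoblast formation: Runx1, Runx2, Runx3, Cbfb, Sp7, Dlx3, Dlx5 and Dlx6. They were chosen by name from the gene count table, by matching symbol to Ensembl identifier, and are 8 of the 55487 listed genes. RNA came from C57BL/6 mouse limbs taken on postnatal day 3, from which 3 populations were sorted. Per the labels these are skeletal stem cells (SSC), the progenitors of bone, cartilage and stroma (BCSP) and a stage before them, pre-bone, cartilage and stromal progenitor cells (pBCSP). All mice carried floxed Ptip alleles. The WT groups (Ptipf/f) had no Cre, and the KO groups (Ptipf/f;Col2a1-cre) had a Cre driven by Col2a1, which encodes the chief collagen of cartilage. The product of Ptip (Paxip1 in current naming) is an adaptor of complexes that methylate histone H3 at lysine 4. Each of the 6 groups had 2 RNA libraries. The labels do not say whether animals were pooled, which exons were floxed or whether the libraries of a group are separate animals, and p-values here may reflect technical spread alone. Each group also had 1 list of H3K4me3 peaks (a mark of promoters), 1 of H3K4me1 peaks (promoter flanks and enhancers) and 2 of H3K27ac peaks (active promoters and enhancers).

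RUNX proteins bind DNA through their Runt domain, and CBFB, the product of Cbfb, is the partner that strengthens this binding without touching DNA itself. RUNX2 is required for cells to become osteoblasts and also acts in maturing cartilage; SP7, also called osterix, acts after RUNX2 and is needed for bone formation. DLX3, DLX5 and DLX6 are homeodomain factors of the skeleton, and Dlx5 and Dlx6 lie next to each other. Runx genes are known for having a distal and a proximal promoter, used for proteins that differ at their start.

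The promoter sequences show what the 3 Runx genes have in common. RefSeq starts on GRCm38.p6 were at hand for 4 of the 8 genes: Runx1 (distal and proximal), Runx2 (distal), Runx3 (distal and proximal) and Cbfb, which makes 6 starts. The 3 distal Runx windows, from 250 bases before to 50 bases after the start, share a run of 18 bases that holds the motif AACCACA, the core that RUNX proteins bind, in 2 copies. The 30 bases around it are given because they are the one stretch that joins the 3 genes, with the shared run in capitals, 5′ to 3′.
Runx1, chr16:92826025-92826054, minus strand: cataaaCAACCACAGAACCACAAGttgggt
Runx2, chr17:44814583-44814612, minus strand: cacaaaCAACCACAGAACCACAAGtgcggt
Runx3, chr4:135120503-135120532, plus strand: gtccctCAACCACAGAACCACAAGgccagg
In Runx1 and Runx2 the run begins 27 and 22 bases into the transcript, counting the start as base 1, whereas in Runx3 it begins at base -136, before the start. Of 32851 promoter windows of this length, 4 hold the run: those of the 3 Runx genes and that of Gm16225, a neighbour of Runx3. AACCACA on either strand occurs in 5.27% of the windows, and in 2 or more copies in 0.204%. The Runx2 window holds 1 more copy at base -81, and the proximal Runx1, proximal Runx3 and Cbfb windows hold none. A match of letters describes the sequence and does not show that a protein binds there.

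The distal and proximal promoters also differ in base composition. The Runx1 windows had 45.0% G and C with 2 CpG dinucleotides at the distal start and 69.0% with 35 at the proximal start. In Runx3 the values were 63.7% with 8 and 77.3% with 45, in Runx2 45.3% with 2 and in Cbfb 69.7% with 30. Over all windows the median was 52.7% with 7. The 250 bases before both Runx1 starts are shown because the H3K4me3 peaks at these starts, given below with the peaks, differ in width and fold; capitals mark each CpG.
Runx1 distal, chr16:92826075-92826324, minus strand: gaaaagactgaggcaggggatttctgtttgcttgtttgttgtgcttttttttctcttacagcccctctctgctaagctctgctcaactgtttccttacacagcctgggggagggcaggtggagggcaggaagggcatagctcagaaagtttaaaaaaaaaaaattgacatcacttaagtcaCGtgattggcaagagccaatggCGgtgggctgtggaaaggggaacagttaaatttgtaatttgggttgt
Runx1 proximal, chr16:92697330-92697579, minus strand: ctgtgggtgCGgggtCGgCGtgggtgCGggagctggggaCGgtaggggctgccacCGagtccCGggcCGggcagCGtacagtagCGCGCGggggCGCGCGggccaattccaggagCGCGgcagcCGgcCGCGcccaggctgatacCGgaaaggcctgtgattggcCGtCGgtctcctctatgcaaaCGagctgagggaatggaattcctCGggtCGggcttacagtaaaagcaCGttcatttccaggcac
The distal stretch holds 2 CpG and the proximal one 27.

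The 12 RNA libraries held 15495915 to 22670899 counts. Values are given as CPM, counts per 1e+06 reads after scaling for library composition, and 3 counts correspond to 0.134 to 0.208 CPM. Paxip1, the targeted gene, lay at 7.25 to 14.6 CPM in the 6 WT libraries and at 0 to 3.48 CPM in the 6 KO libraries, and was lower in KO by a log2 difference of -4.52 ± 0.76 (SE) on average over the populations (adjusted p = 0.0396, 0 of 6 KO libraries above the WT mean). Leaving out 1 library ended that call for 9 of the 12 (each of the 6 WT libraries, both pBCSP KO libraries and BCSP KO replicate 2), and with pBCSP and BCSP alone (-3.69, adjusted p = 0.0640). By population the log2 difference of Paxip1 was -6.22 ± 1.45 in SSC, -5.09 ± 1.35 in pBCSP and -2.25 ± 1.16 in BCSP. None of these passed the threshold over all genes. The BCSP KO libraries were at 3.48 and 0.791 CPM. In edgeR the test of a difference in this effect among the populations gave an unadjusted p of 0.103. Of the 6 KO libraries, SSC KO replicate 2 stood apart, with a read in 13987 genes, against 20965 or more in each of the other 11. The median gene differed by 1.47 on the log2 scale between the SSC KO libraries and by 0.36 to 0.70 between those of the other groups. Markers of other cells were present at levels that differed between libraries. The summed CPM of 12 leukocyte genes ran from 4.84 to 33.0, highest in SSC KO replicate 2. In that library Laptm5, a lysosomal protein gene of blood cells, was at 24.4 CPM, and 10 of the 12 genes had 0 reads. Over the libraries Ptprc, which encodes the pan-leukocyte protein CD45, was at 0 to 0.578 CPM. Endothelial genes (8) summed to 11.3 to 64.7 CPM in WT and 5.20 to 29.5 in KO. Skeletal muscle genes (8) summed to 36.7 to 621 CPM in WT and 40.8 to 451 in KO, and were highest in both BCSP WT libraries and BCSP KO replicate 1. Osteoclast genes (7) summed to 103 to 295 in WT and 42.6 to 126 in KO, keratinocyte genes (8) to 76.8 to 157 and 18.4 to 276, and erythroid genes (6) to 19.8 to 203 and 2.13 to 27.4. The part of these cells in the values of the 8 genes was not tested. None of the leukocyte, endothelial, erythroid, osteoclast, keratinocyte, muscle, stromal progenitor or immediate early genes passed the test of KO against WT on average.

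All 8 genes passed the filter on low counts, which kept 17494 genes. In edgeR's quasi-likelihood test 0 of the 8 passed an adjusted p of 0.05 on average over the 3 populations, where 1.17% of all genes passed (205 genes: 169 higher in KO, 0.966%, and 36 lower, 0.206%); by unadjusted p under 0.05 the count was 3 of 8, against 19.6% of all genes. Within SSC, pBCSP and BCSP 0 of 8 passed as well, where 0% of all genes did. DESeq2 also called 0 of the 8 in each of these comparisons. Of all genes it called 1693 on average, 174 in SSC, 99 in pBCSP and 123 in BCSP. By unadjusted p under 0.05, 0 of the 8 were counted in SSC, 0 in pBCSP and 2 in BCSP, where the shares of all genes were 9.39%, 6.27% and 6.26%. The values below are therefore levels and differences with their errors, none of them past the threshold over all genes unless said. The fit counts the libraries of a genotype as independent. Those of the same replicate number moved together, as given below, so errors and p-values on average over the populations may be too small.

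**Figure D1:**
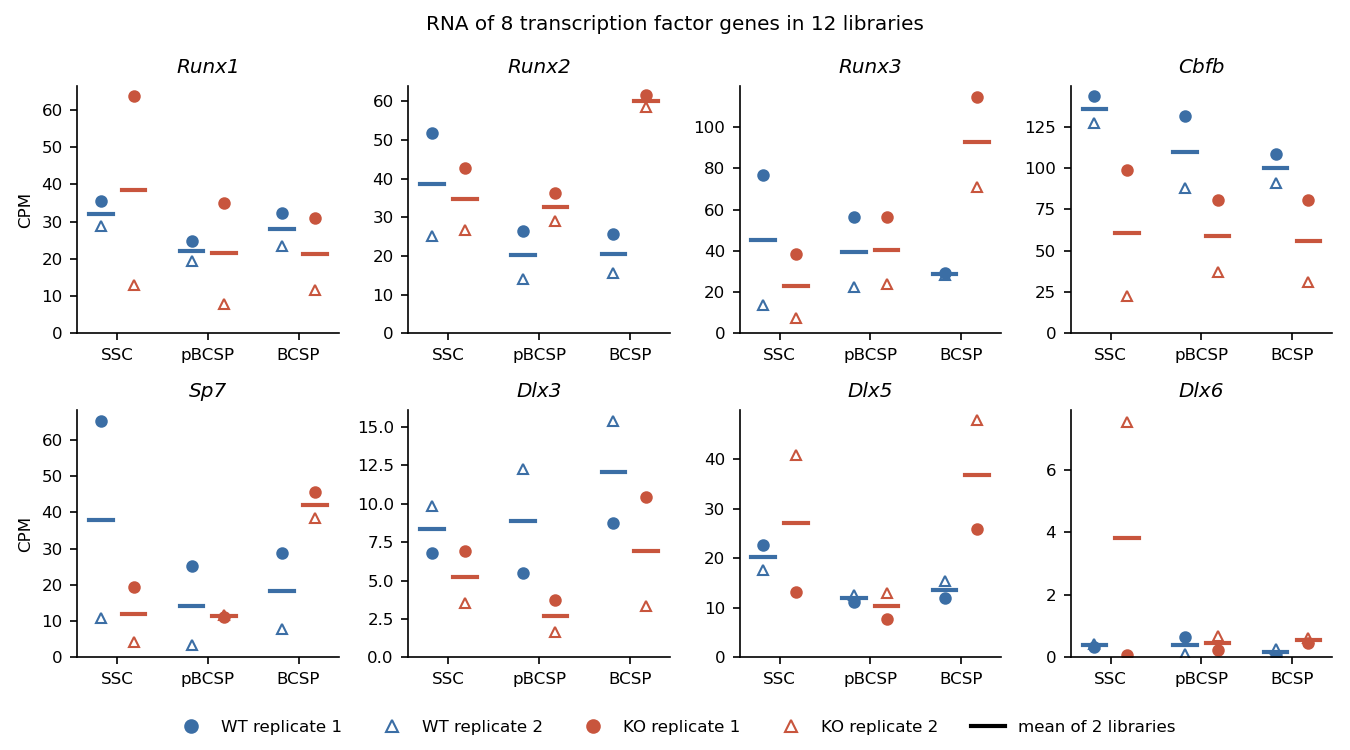
CPM of the 8 genes (vertical axes, linear, from 0) in each of the 12 RNA libraries by population; filled circles are replicate 1, open triangles replicate 2, and bars the mean of the 2 libraries of a group. In BCSP both KO libraries lie above both WT libraries for Runx2, Runx3, Sp7, Dlx5 and Dlx6, and in every population both KO libraries lie below both WT libraries for Cbfb.

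Runx2 (ENSMUSG00000039153; chromosome 17, 44495987 to 44814797), the osteoblast factor, was at 51.9 and 25.2 CPM in SSC WT and 42.8 and 26.7 in SSC KO. In pBCSP it was at 26.6 and 14.1 in WT and 36.2 and 29.0 in KO. In BCSP it was at 25.6 and 15.5 in WT and 61.6 and 58.4 in KO. The WT and KO libraries overlapped in SSC and did not overlap in pBCSP and BCSP, where both KO libraries were higher. The log2 difference between KO and WT was -0.15 ± 0.47 in SSC, 0.68 ± 0.47 in pBCSP and 1.54 ± 0.48 in BCSP (2.91-fold, adjusted p = 0.643). On average it was 0.69 ± 0.27 (adjusted p = 0.208, 5 of 6 KO libraries above the WT mean of their own population). The effect in BCSP exceeded that in SSC by 1.69 ± 0.66, with an unadjusted p of 0.0304 and an adjusted p of 1.00 over all genes. Reads of Supt3 and Runx2os3, which overlap Runx2, of Gm30281, which overlaps Runx1, and of AI225912, which overlaps Cbfb, cannot be told from the member's own if strand was not used in counting, on which the sources used here are silent.

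Runx3 (ENSMUSG00000070691; chromosome 4, 135120645 to 135177990), which acts with RUNX2 in cartilage maturation, varied most among the 3 Runx genes. It was at 76.8 and 13.6 CPM in SSC WT and 38.6 and 7.43 in SSC KO, at 56.6 and 22.6 in pBCSP WT and 56.5 and 24.2 in pBCSP KO, and at 29.5 and 28.3 in BCSP WT and 115 and 71.1 in BCSP KO. Replicate 1 exceeded replicate 2 in each of the 6 groups, by 5.64-fold in SSC WT and 5.20-fold in SSC KO. Both SSC KO libraries were below the SSC WT mean and both BCSP KO libraries above both BCSP WT libraries. KO differed from WT by -0.98 ± 0.91 (log2) in SSC, by 0.03 ± 0.90 in pBCSP and by 1.68 ± 0.92 in BCSP (3.21-fold, adjusted p = 0.846).

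Runx1 (ENSMUSG00000022952; chromosome 16, 92601466 to 92826074), best known from blood formation and present in skeletal progenitors, was at 35.4 and 28.8 CPM in SSC WT and 63.6 and 13.1 in SSC KO. It was at 24.8 and 19.3 in pBCSP WT and 35.1 and 7.96 in pBCSP KO, and at 32.3 and 23.5 in BCSP WT and 31.0 and 11.7 in BCSP KO. In each population KO replicate 2 was the lowest of the 4 libraries, and in SSC and pBCSP KO replicate 1 was the highest. The log2 difference on average was -0.06 ± 0.47, and the 3 populations gave 0.25 ± 0.82, -0.04 ± 0.82 and -0.39 ± 0.82. The leukocyte sum given above was highest in SSC KO replicate 2, where it rested mostly on Laptm5. In that library 10 of the 12 genes had 0 reads. The part of blood cells in the values of Runx1 was not tested.

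Cbfb (ENSMUSG00000031885; chromosome 8, 105170674 to 105217989), the shared partner, was the one member whose KO libraries lay below the WT libraries in each population. It was at 144 and 127 CPM in SSC WT against 98.9 and 22.8 in SSC KO, at 132 and 88.1 in pBCSP WT against 80.6 and 37.1 in pBCSP KO, and at 109 and 91.1 in BCSP WT against 80.4 and 30.8 in BCSP KO. Of all genes, 6.53% lay lower in KO without overlap in each of the 3 populations, and 5.32% higher, which no member did. The log2 difference was -0.97 ± 0.39 on average (1.95-fold lower, adjusted p = 0.217, 0 of 6 KO libraries above the WT mean), and -1.16 ± 0.68, -0.90 ± 0.67 and -0.84 ± 0.67 by population. The call of Cbfb turned on 1 library and on the filter: without SSC KO replicate 1, which leaves the library that stood apart as the lone SSC KO sample, it was -1.43 ± 0.32 (adjusted p = 0.0101; 6147 genes then passed), and with no filter on low counts -0.98 (adjusted p = 0.00271; 1882 genes passed). Without SSC KO replicate 2 it was -0.74 ± 0.31 (adjusted p = 0.220).

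Sp7 (ENSMUSG00000060284; chromosome 15, 102356603 to 102367035), the factor that follows RUNX2, differed strongly between WT replicates. It was at 65.1 and 10.7 CPM in SSC WT, 25.1 and 3.46 in pBCSP WT and 28.7 and 7.75 in BCSP WT. The KO libraries were at 19.4 and 4.32 in SSC, 11.1 and 11.8 in pBCSP and 45.6 and 38.3 in BCSP. WT replicate 1 thus exceeded WT replicate 2 by 6.06-fold, 7.26-fold and 3.70-fold, while the KO libraries of pBCSP and BCSP differed by 1.06-fold and 1.19-fold. The log2 difference between KO and WT was -1.68 ± 1.12 in SSC, -0.32 ± 1.09 in pBCSP and 1.20 ± 1.10 in BCSP, where both KO libraries were above both WT libraries (adjusted p = 0.917). The average of -0.27 ± 0.63 changed sign with the replicate number as a block (0.15) and with pBCSP and BCSP alone (0.43).

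For Runx3 and Sp7 both KO libraries were below the WT mean in SSC and above it in BCSP. The test of whether the KO effect differed among the populations gave an adjusted p of 1 for each of the 8 genes (unadjusted p of 0.171 for Runx3, 0.236 for Sp7 and 0.0850 for Runx2), and called 0 of all genes in edgeR (0%; 1.37% by unadjusted p under 0.05) and 3 in DESeq2, none of them a member. The difference of the effects in BCSP and SSC was 2.66 ± 1.30 for Runx3 and 2.88 ± 1.57 for Sp7.

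Dlx3 (ENSMUSG00000001510; chromosome 11, 95120117 to 95125296), a homeodomain factor of bone, skin and teeth, was at 6.80 and 9.85 CPM in SSC WT and 6.93 and 3.55 in SSC KO. It was at 5.47 and 12.3 in pBCSP WT and 3.72 and 1.67 in pBCSP KO, and at 8.73 and 15.4 in BCSP WT and 10.4 and 3.35 in BCSP KO. No KO library exceeded the WT mean of its population, and only in pBCSP did the groups not overlap. The log2 difference was -1.06 ± 0.44 on average (2.09-fold lower, adjusted p = 0.224) and -1.72 ± 0.77 in pBCSP (adjusted p = 0.792).

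Dlx5 (ENSMUSG00000029755; chromosome 6, 6877801 to 6882068), which acts upstream of Runx2 and Sp7 in bone formation, was at 22.7 and 17.7 CPM in SSC WT and 13.2 and 40.9 in SSC KO. It was at 11.3 and 12.6 in pBCSP WT and 7.82 and 13.02 in pBCSP KO, and at 11.98 and 15.3 in BCSP WT and 25.9 and 47.9 in BCSP KO. The groups overlapped in SSC and pBCSP, and in BCSP both KO libraries were higher. The log2 difference in BCSP was 1.43 ± 0.56 (2.70-fold, unadjusted p = 0.0306, adjusted p = 0.731) and on average 0.55 ± 0.32 (adjusted p = 0.369). The average depended on the SSC KO libraries: it was 0.76 ± 0.24 without replicate 1, where it passed (adjusted p = 0.0366), and 0.21 ± 0.24 without replicate 2, the library that stood apart.

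Dlx6 (ENSMUSG00000029754; chromosome 6, 6863334 to 6867970), the neighbour of Dlx5, was near the limit of detection in 11 of the 12 libraries. It had 1 to 15 reads (0.0493 to 0.678 CPM) in those, and 136 reads (7.54 CPM) in SSC KO replicate 2, the library that stood apart. SSC KO replicate 1 had 1 read. The average log2 difference was 1.75 ± 0.97 with that library and -0.14 ± 0.77 without it, so its sign rested on 1 library. Without SSC KO replicate 1 it was 2.09 ± 0.62 and passed (adjusted p = 0.0307). Dlx6os1, an RNA that overlaps Dlx6, had 0 reads in SSC KO replicate 2 and 38 in replicate 1, while Dlx5 was at 40.9 CPM in the former.

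**Figure D2:**
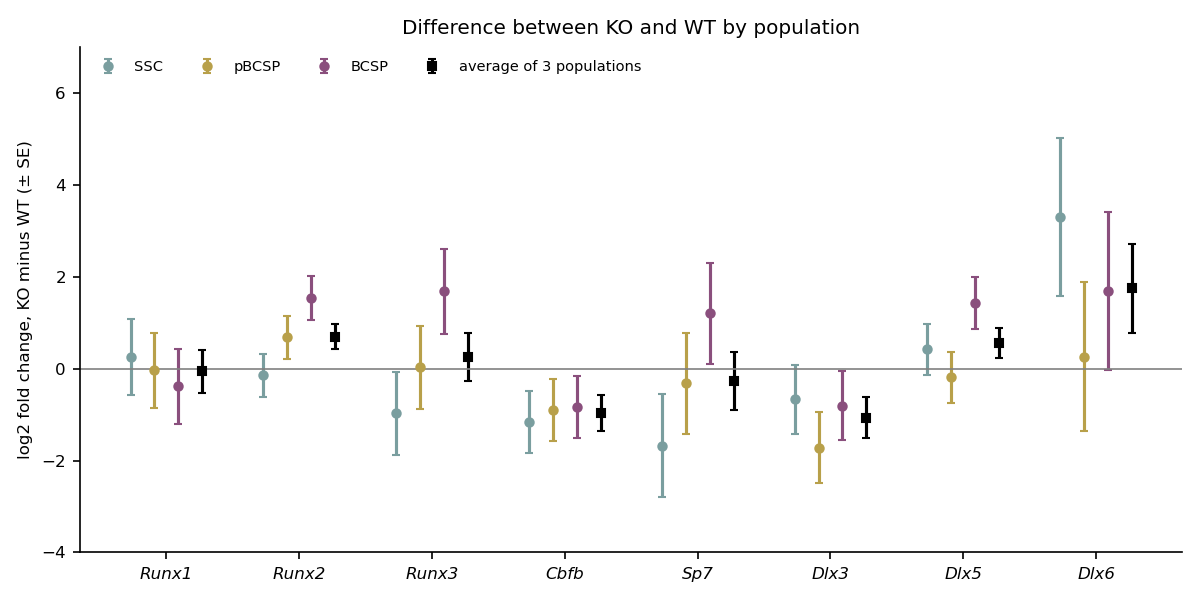
Log2 fold change between KO and WT (vertical axis) of the 8 genes in each population and averaged, from the edgeR fit over 17494 genes. Bars are 1 SE, over 2 libraries a group, the average resting on 6 of each genotype. The fit counts these 6 as independent, though same-numbered libraries moved together, so the SE of the average may be too small. In BCSP the values of Runx2, Runx3, Sp7, Dlx5 and Dlx6 lie between 1.20 and 1.69, while those of Cbfb and Dlx3 are below 0 in all 3 populations.

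In BCSP most of the 8 genes lay higher in KO, without passing the test over all genes. In BCSP 5 of 8 had both KO libraries above both WT libraries, which 24.2% of all genes also had. Cbfb alone had them below, as had 26.4% (6 of 8 in either direction, 50.5% of all genes). Dlx6, counted among the 5, was near the limit of detection, with 1 and 5 reads in WT and 9 and 10 in KO. The median log2 difference of the 8 genes in BCSP was 1.32, against -0.01 for all genes. In SSC 1 of 8 did not overlap (39.5% of all genes) and the median was -0.41 (all genes -0.22); in pBCSP 3 of 8 did not overlap (45.2%), Runx2 higher (21.2%) and Cbfb and Dlx3 lower (24%), and the median was -0.12 (-0.03). Over the 6 libraries of each genotype 0 of 8 were without overlap, against 5.06% of all genes (3.08% higher and 1.98% lower). The values of Runx2, Runx3, Sp7, Dlx5 and Dlx6 in BCSP kept their sign in the 12 fits that each left out 1 library. Both BCSP KO libraries of each gene lay above both WT libraries, so leaving out 1 could not reverse the order. The kept signs are thus no separate check.

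The libraries of one genotype that carry the same replicate number moved together, and the 8 genes show this. In WT, replicate 1 was above replicate 2 in all 3 populations for Runx1, Runx2, Runx3, Cbfb and Sp7 and below it for Dlx3; 46.6% of all genes kept 1 order in the 3 WT populations. In KO, replicate 1 was above replicate 2 in all 3 populations for Runx1, Runx2, Runx3, Cbfb and Dlx3 and below it for Dlx5 and Dlx6, and 44.9% of all genes kept 1 order. The order of the replicates of Dlx3 was thus opposite in WT and KO. Immediate early genes such as Fos, which tissue dissociation can induce, moved with the KO numbers: the 7 on the list summed to 12665, 12647 and 9990 CPM in the first KO replicates of SSC, pBCSP and BCSP and to 2193, 888 and 3093 in the second, against 9632 to 12211 in WT. Their part in the values of the 8 genes was not tested.

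**Figure D3:**
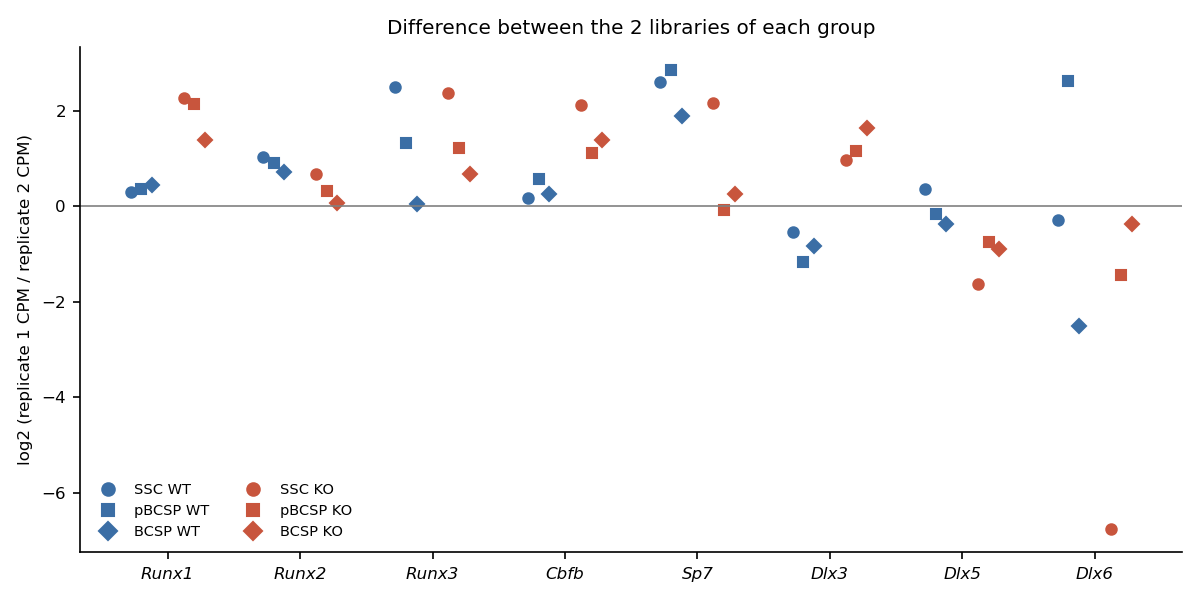
Log2 ratio of replicate 1 to replicate 2 (vertical axis) for each of the 8 genes, with 1 point per population and genotype. The 3 WT points of Sp7 lie between 1.89 and 2.86 and the 3 KO points of Runx1 between 1.40 and 2.28; ratios of Dlx6 rest on as few as 1 read, and its point at -6.77 sets 1 read against 136.

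Across the 12 libraries, Pearson's r of log2 CPM was 0.79 between Sp7 and Runx3, 0.79 between Sp7 and Runx2, 0.76 between Runx1 and Cbfb, 0.66 between Runx2 and Runx3 and 0.61 between Dlx5 and Dlx6, and it was -0.69 between Cbfb and Dlx6. These describe libraries that share groups and replicate numbers. The r values of Dlx6, here and below, rest on 1 to 15 reads in every library but SSC KO replicate 2. That library, which stood apart, had 136. Among 8379 genes with a mean of at least 10 CPM, the 3 of most similar pattern were Pnrc1, Timp1 and Ube2f for Runx1 (r 0.94 to 0.95) and Adk, Cryzl2 and Taf13 for Runx2 (0.93 to 0.94). They were Rhbdl2, Nadk and Slc25a13 for Runx3 (0.89 to 0.90), 1810013L24Rik, Pitpna and Rap1b for Cbfb (0.97 to 0.98) and Prkg2, Thrb and Hsdl2 for Sp7 (0.91 to 0.93). For the Dlx genes they were Ube2d2a, Hipk3 and Cxcl10 for Dlx3 (0.93 to 0.94), Dnajc9, Spcs1 and Mrpl30 for Dlx5 (0.85 to 0.87) and Spag7, Tars2 and Slc25a14 for Dlx6 (0.91 to 0.93).

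In WT cells the 8 genes were compared along the order SSC, pBCSP, BCSP. In edgeR 0 of 8 passed between any pair of WT populations, where 0% of all genes passed. By unadjusted p under 0.05 the count was also 0 of 8. The shares of all genes were then 1.89%, 2.62% and 3.48% from pBCSP against SSC, BCSP against pBCSP and BCSP against SSC. DESeq2 called 0 of 8 in each, and 38, 29 and 77 of all genes in the same order. With the replicate number as a block within each genotype, 28 genes passed between WT BCSP and WT SSC, and 0 members. Runx2 had its highest WT mean in SSC, 38.5 ± 18.9 CPM (SD, n = 2), against 20.3 ± 8.82 in pBCSP and 20.6 ± 7.16 in BCSP, and its replicates overlapped between the populations. The log2 difference of Runx2 between pBCSP and SSC was -0.92 ± 0.47 (adjusted p = 1.00). Sp7 was at 37.9 ± 38.4 in SSC, 14.3 ± 15.3 in pBCSP and 18.2 ± 14.8 in BCSP. Dlx5 was at 20.2 ± 3.56, 11.9 ± 0.94 and 13.7 ± 2.38, with both SSC libraries above both libraries of pBCSP and of BCSP. Cbfb was at 135 ± 11.4, 110 ± 30.8 and 99.9 ± 12.4, and Runx1 at 32.1 ± 4.71, 22.1 ± 3.92 and 27.9 ± 6.22. Dlx3 had its lowest mean in SSC, 8.32 ± 2.16, and its highest in BCSP, 12.1 ± 4.72. Between BCSP and SSC 3 of 8 did not overlap, Cbfb, Dlx5 and Dlx6, all lower in BCSP, as were 22.6% of all genes. Higher without overlap were 20.8% of all genes and no member. Dlx6 rested on few reads, 1 and 5 in BCSP WT and 6 and 7 in SSC WT. Between pBCSP and SSC 2 of 8, Runx1 and Dlx5, were lower in pBCSP without overlap (16.6% of all genes; 18.8% were higher), and between BCSP and pBCSP 0 of 8 were without overlap (22.2% of all genes higher, 23.1% lower).

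The genes that work with or after these factors were taken from lists. Of 27 partners and regulators of RUNX2 and SP7, 0 passed in KO against WT on average in either direction, 18 were below 0 and the median log2 difference was -0.49, against -0.09 for all genes. The members of highest level on that list were Sox9, the chondrocyte factor that restrains RUNX2 (0.51 ± 0.22, adjusted p = 0.240), and Atf4, which acts with RUNX2 at bone matrix genes (-0.14 ± 0.26, 0.802). Of 14 osteoblast matrix and mineral genes 0 passed and 11 were below 0, with a median of -1.19; Col1a1, the chain of bone collagen, was at -1.20 ± 0.39 (adjusted p = 0.146) and Sparc, a matrix protein of bone, at 0.23 ± 0.19 (0.529). In BCSP, where Runx2 and Sp7 were higher in both KO libraries, that list had 8 of 14 below 0 and a median of -0.44. Of 8 hypertrophic cartilage genes 0 passed, with a median of 0.43 on average and 1.01 in BCSP; Spp1 (osteopontin), which is also on the matrix list, was at -0.88 ± 0.57 (0.421) and Panx3, a channel protein of hypertrophic chondrocytes and osteoblasts, at 0.37 ± 0.69 (0.795). Of the other Dlx genes 3 were tested and 0 passed: Dlx2 was at -1.29 ± 1.21 (0.586), Dlx6os1 at 0.98 ± 1.02 (0.622), and Dlx4 at -0.34 ± 1.26 (0.906).

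Markers of the sorted cells moved with genotype beside these values. Of 13 chondrocyte markers 8 passed as higher in KO on average (0.966% of all genes did), with a median of 1.14; the 4 of smallest p were Matn1 at 3.00 ± 0.33, Matn3 at 1.47 ± 0.22, Col11a2 at 1.41 ± 0.23 and Cnmd at 1.40 ± 0.25. These calls were lost, with 0 of all genes passing, without any 1 of the 6 WT libraries, pBCSP KO replicate 2 or BCSP KO replicate 2, and with pBCSP and BCSP alone. Their summed level was 35957 to 99397 CPM in WT and 65889 to 108405 in KO. Osteoblast markers, Sp7 among them, summed to 12154 to 40245 CPM in WT and 1845 to 19455 in KO. Most of each sum was Col1a1 alone, at 10933 to 39451 CPM in WT and 1470 to 18476 in KO. Of the markers 0 of 8 passed, and 8 of 8 were below 0 on average (median -1.36). In BCSP 4 of the 8 were above 0 and 4 below, with a median of -0.20. There Ibsp, Phex, Dmp1 and Ifitm5 were above both WT libraries in KO replicate 1 and below both in KO replicate 2. Alpl and Bglap lay between the WT libraries in KO replicate 1 and below both in KO replicate 2. Both KO libraries of Col1a1 in BCSP, at 18075 and 8481 CPM, were below both WT libraries, at 33420 and 39451. Sp7, a member and 1 of the 4 above 0 in BCSP, had both KO libraries above both WT libraries there. The average of Sp7 itself turned positive with the replicate block, as given above. In SSC their sum was 7321 in KO replicate 1 and 1845 in KO replicate 2. Stromal progenitor markers summed to 203 to 1809 CPM in WT and 117 to 772 in KO. In bulk RNA, fewer cells of a type and less RNA per cell cannot be told apart, and the part of these markers was not tested either.

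H3K4me3 peaks marked the starts of the 4 genes with known starts in nearly all lists. A peak lay within 1000 bases of the start in 18 of 18 pairs of a start and a WT list, and in 16 of 18 in KO; over all 32851 starts the share with a peak was 49.3% to 53.4% by list. The missing pairs were the distal starts of Runx1 and Runx3 in pBCSP KO, whose list was the smallest (25468 peaks, against 28612 to 42399 in the others); whether the size of the list had a part was not tested. With 1 library a group no difference between genotypes in these peaks has a replicate check, and the fold enrichments are the authors' values, used within a list. The depth of these libraries is unknown here.

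The proximal start of Runx1 stood under a broad peak in every list, and near its distal start lay a weak one. The proximal peak was 6406 to 9130 bases wide, wider than at 98.3% to 98.7% of starts with a peak in the same list, and its fold enrichment of 12.6 to 20.3 was above the median start of the same list in 5 of 6, pBCSP KO being below. The distal peak had a fold of 3.23 to 4.61 in the 5 lists that had one, which 0.438% to 7.23% of starts with a peak fell short of, and was 669 to 2105 bases wide. In 4 of those 5 lists it ended inside the gene, short of the start, and in SSC KO it reached across the start. H3K4me1 peaks lay at both starts in all 6 lists. The CpG-rich proximal sequence printed above thus lay under the broad H3K4me3 peak in all 6 lists. The CpG-poor distal sequence lay under an H3K4me3 peak in SSC KO alone.

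In Runx2 the distal start lay under a peak of modest fold, 5.30 to 10.2, but great width, 3223 bases in pBCSP KO and 6408 to 14125 in the other 5 lists. That is wider than at 85.5% of starts with a peak in pBCSP KO and at 97.6% to 99.7% in the others. Another broad peak lay inside the gene, at 44732085 to 44739682 in SSC WT (7598 bases, fold 15.7); in the 6 lists its fold was 11.5 to 18.2. The strongest peak within the gene in 5 of the 6 lists, fold 13.9 to 20.5 over all 6, lay at 44776409 to 44778444 in SSC WT, over the end of the overlapping gene Supt3 at 44777118, so that it cannot be assigned to Runx2.

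Runx3 had peaks at both starts in 5 lists and at the proximal start alone in pBCSP KO. The proximal fold was 5.98 to 10.5 and the distal fold 4.19 to 7.46, and within each list the proximal peak had the higher fold. The peak at the distal start was 1771 to 3186 bases wide. H3K4me1 was called at the distal start in 1 of 6 lists, SSC KO, and at the proximal start in 3. Cbfb had a peak of 3237 to 4045 bases with a fold of 14.4 to 19.9 in all 6 lists, above the median start of the same list in 6 of 6, and an H3K4me1 peak in all 6.

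**Figure D4:**
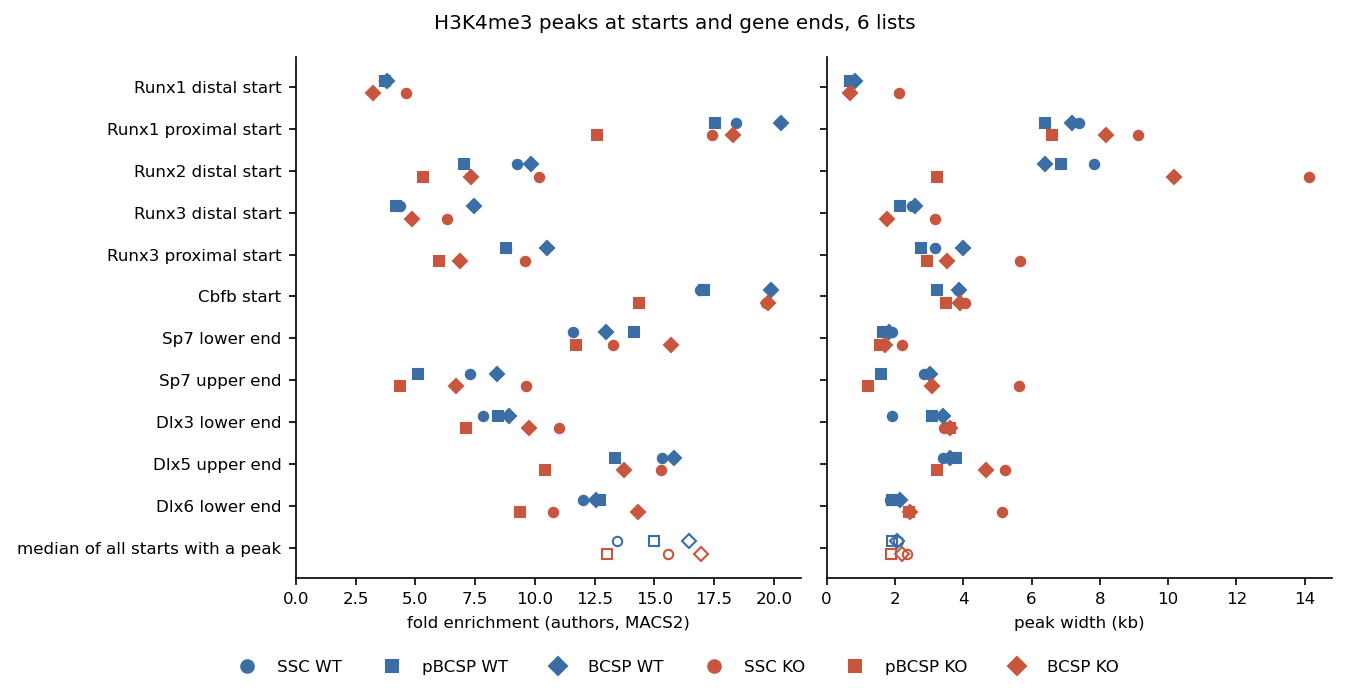
Fold enrichment (left) and width in kb (right) of the H3K4me3 peak at each start, or at a gene end where no start was at hand, in 6 lists; filled symbols are members, and open symbols in the bottom row the median over all starts with a peak in that list. The proximal Runx1 start combines high fold with a width of 6.4 to 9.1 kb, and the distal Runx2 start has the greatest width, 14.1 kb in SSC KO. The peaks at the lower ends of Sp7 and Dlx6 also lie over other genes and cannot be assigned to these members.

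For Sp7, Dlx3, Dlx5 and Dlx6, peaks within 1000 bases of either end of the annotated gene were used. Near both ends of Sp7 lay an H3K4me3 peak in all 6 lists. Its fold was 11.6 to 15.7 at the lower end and 4.36 to 9.63 at the upper end. In all 6 lists the peak at the lower end lay over the end of Gm36246 at 102355139. It reached the span of Sp7, which begins at 102356603, in SSC KO alone, so that it cannot be assigned to Sp7. Dlx3 had a peak at its lower end in all 6 (fold 7.13 to 11.03), Dlx5 at its upper end (10.4 to 15.8) and Dlx6 at its lower end (9.38 to 14.3), the last within the span of Dlx6os1 and over an end of Dlx6os2, so that it cannot be assigned to any 1 of these genes. H3K4me3 was thus called at Dlx6 also in the 5 groups in which both RNA libraries had 15 reads or fewer of it. H3K4me1 was called at an end of Dlx3, Dlx5 and Dlx6 in 5 of 6 lists, SSC WT, whose list of 75277 H3K4me1 peaks was the smallest, being the one without.

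**Figure D5:**
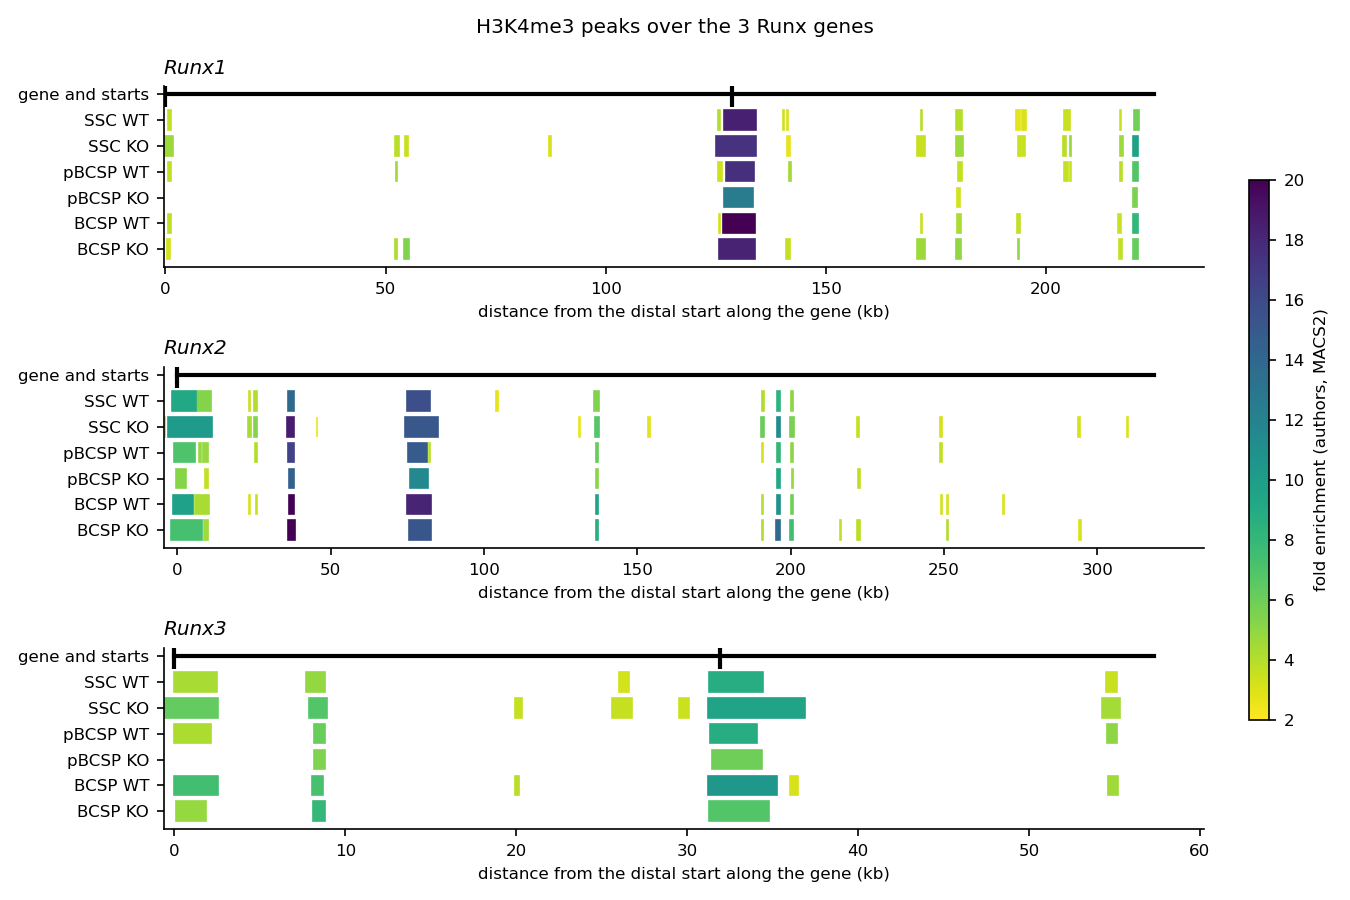
H3K4me3 peaks over the 3 Runx genes by list, as distance in kb from the distal start along the gene (horizontal axis); colour is the authors' fold enrichment, the black line the gene and the ticks the RefSeq starts, and the narrowest peaks are drawn at the width of the outline. The broad dark peak in Runx1 stands at the proximal start, and pBCSP KO lacks a peak at the distal starts of Runx1 and Runx3.

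Over the gene bodies and 10000 bases to each side, pBCSP KO had the fewest H3K4me3 peaks at the 8 genes. Runx1 had 3 there against 10 in pBCSP WT, Runx2 8 against 12 and Runx3 2 against 4, while Cbfb, Sp7, Dlx5 and Dlx6 had equal numbers and Dlx3 2 against 1. These windows also hold peaks over ends of other genes: D230025D16Rik beside Cbfb, Aaas and Gm36246 beside Sp7 and Supt3 inside Runx2. Such peaks are counted here though they cannot be assigned to a member. Counting each peak once, 26 of 40 peaks of the windows in pBCSP WT overlapped a KO peak (65.0%, against 81.4% of all peaks). The other way it was 26 of 28 (92.9%, against 91.5% of all peaks). In SSC 41 of 45 WT peaks overlapped a KO peak (91.1%; all peaks 92.7%) and in BCSP 36 of 43 (83.7%; all peaks 91.7%). H3K4me1 peaks numbered 100 to 119 per list at the 8 genes, and 84.0% to 94.0% of the WT peaks overlapped a KO peak, against 87.3% to 92.8% of all WT peaks.

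H3K27ac peaks were sparse at the 8 genes, as they were over the genome, with 137 to 8572 peaks in a list. In the 12 lists 16 peaks fell within 10000 bases of a member. Of these, 10 were at Runx1, in 6 lists, 3 at Runx2, in 3 lists, and 1 at Runx3. A further 2 lay near Sp7, and 0 near Cbfb, Dlx3, Dlx5 and Dlx6. The 2 near Sp7 were in BCSP WT of the first set and BCSP KO of the second. They lay outside Sp7, at 102350246 to 102351016 and 102349886 to 102350340. The former was over the end of the neighbouring gene Aaas at 102350759 and the latter within Aaas, so that neither can be assigned to Sp7. For the 6 starts there were 18 pairs of a start and a list in each set and genotype. A peak was found in 1 of 18 in WT of the first set, near the proximal Runx1 start in BCSP WT. In the other sets and genotypes it was 0 of 18. Over all 32851 starts the share with a peak was 0.155% to 12.4% by list, and 12.4% in that BCSP WT list. Inside Runx1, peaks near 92621243 to 92621869 (SSC WT, first set) recurred in pBCSP WT of both sets, at 92620265 to 92621721 and 92621125 to 92621324, and in BCSP KO of the second set at 92621568 to 92621865. A further site in Runx1 was called in BCSP KO in both sets, at 92654277 to 92655032 and 92654189 to 92654388, over peaks of H3K4me3 and H3K4me1 of the same group. The 2 sets have different layouts, broad and narrow, and a gene without a peak in lists of this size is not shown to lack the mark.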

How the data were processed

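RNA was read in 12 libraries and histone marks in 24 peak lists; 12 input libraries were not used here. The authors deposited raw counts of reads for each gene, in whole numbers, and RNA was poly(A)-selected, per the labels' protocols. The peak lists hold the authors' fold enrichment, score and -log10 values of p and q; fold was used to describe and rank peaks, and -log10 q to filter them. Per the submitters' processing notes, the build was GRCm38 and the tools were MACS2 2.2.6, SAMtools 1.9, featureCounts 2.0.1, Bowtie2 2.3.5.1 and Trim Galore 0.6.6; settings, strand and annotation are not stated there.

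Counts were scaled by TMM, filtered with filterByExpr (17494 genes kept) and fitted with a mean per group over all 12 libraries in edgeR 4.0.16 (R 4.3.3; quasi-likelihood test), with Benjamini-Hochberg adjustment over all genes tested and a threshold of 0.05. The adjusted p-values printed come from this fit unless DESeq2 1.42.0 or limma 3.58.1 is named. The script was tested on simulated data. Gene spans and promoter windows are from RefSeq (GRCm38.p6). AACCACA was searched on both strands. The 8 members and Paxip1 are always named; of other lists, up to 4 called genes by smallest p, or else the 2 of highest mean CPM, plus Dlx4, which was named after its values were seen; Fos, Ptprc, Laptm5 and Gm16225 were named likewise. Members and lists were chosen with earlier results of these data known. Deviations from group means of same-numbered libraries correlated within a genotype in 6 of 6 pairs (r 0.281 to 0.504). Across genotypes 0 of 9 pairs had an r over 0.1. The number was therefore taken to pair populations of a genotype, from the data and not from the labels. The main fit holds no such pairing, so its errors and p-values for averages over the populations may be too small. Alternatives were other scaling, DESeq2, no filter, blocks by replicate number, 2 populations, each library left out and, for peaks, -log10 q of at least 5, a window of 500 bases and cover of the window.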

Additional observations from a re-analysis of the deposited data

How the results depend on the processing

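The 8 genes' calls in the 8 comparisons, 0 throughout, held in every alternative run except 2. With no filter on low counts 1 member passed on average over the populations, Cbfb, and without SSC KO replicate 1 the count was 3 on average and 2 in SSC (Cbfb at -2.56 and Dlx6 at 4.29), the lone SSC KO library then being assumed to vary like the other groups; over the fits that each left out 1 library it ran from 0 to 3 on average and from 0 to 2 in SSC. The cause was not tested. Paxip1 ran from -6.08 to -4.19 over those fits and was at -3.69 with pBCSP and BCSP alone. With the replicate number as a block over both genotypes, no member's call changed and 5 values changed sign: Sp7 was at 0.15 on average and 0.39 in pBCSP, Runx1 at -0.10 in SSC, Dlx6 at -0.29 in pBCSP and Runx3 at 0.032 for WT pBCSP against SSC. A block within each genotype, chosen after seeing the data, gave 0.017 for the last and changed no member's call. Sp7 was at 0.43 on average with pBCSP and BCSP alone.

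Of 56 log2 differences of the members, 29 changed sign in at least 1 of 12 fits without 1 library and 27 in none. The 29 ran, lowest to highest, as follows. On average, Runx1 ran from -0.56 to 0.19, Runx3 from -0.29 to 0.82, Sp7 from -0.74 to 0.41 and Dlx6 from -0.14 to 2.34. In SSC, Runx1 ran from -1.28 to 0.98, Runx2 from -0.59 to 0.46, Runx3 from -2.59 to 0.75, Sp7 from -3.12 to 0.14, Dlx5 from -0.61 to 1.03 and Dlx6 from -2.35 to 4.29. In pBCSP, Runx1 ran from -1.47 to 0.67, Runx3 from -0.71 to 0.84, Sp7 from -1.14 to 1.72, Dlx5 from -0.61 to 0.13 and Dlx6 from -0.62 to 2.04, and in BCSP Runx1 from -1.30 to 0.15. For WT pBCSP against SSC, Runx3 ran from -1.004 to 1.54, Sp7 from -3.46 to 0.41, Dlx3 from -0.60 to 0.56 and Dlx6 from -1.76 to 0.80. For WT BCSP against pBCSP, Runx2 ran from -0.39 to 0.55, Runx3 from -0.97 to 0.36, Cbfb from -0.40 to 0.18, Sp7 from -0.88 to 2.40, Dlx3 from -0.021 to 1.14 and Dlx6 from -2.82 to 0.57. For WT BCSP against SSC, Runx1 ran from -0.45 to 0.014, Runx3 from -1.41 to 1.09 and Sp7 from -2.29 to 0.77.

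Counts over all genes moved more. On average 205 genes passed, 1693 with DESeq2, 1882 with no filter, 44 with limma-voom and an estimated correlation of replicate numbers, 0 with pBCSP and BCSP alone and 0 to 6147 with 1 library left out. Where edgeR called 0, DESeq2 and no filter gave 174 and 395 in SSC, 99 and 260 in pBCSP, 123 and 337 in BCSP, 3 and 50 for the difference between populations (2082 without SSC KO replicate 1), and 38 and 133, 29 and 107, and 77 and 246 for WT pBCSP against SSC, BCSP against pBCSP and BCSP against SSC.

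Counts of H3K4me1 and H3K27ac peaks at starts moved with the settings. For H3K4me1, 14 of 18 pairs of start and list had a peak in WT and 14 of 18 in KO, where 40.4% to 60.5% of all starts had one by list. With a -log10 q of at least 5 the counts were 1 in WT and 0 in KO. With peaks over at least 0.5 of the window they were 6 and 6. The share over all starts was not taken at these settings. The 1 H3K27ac peak at a start was lost, leaving 0, with that -log10 q, with a window of 500 bases and with that cover.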
